A study of Mus musculus with 25 samples.

Results

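Rag1, Rag2, Ptcra and Dntt, the genes of antigen receptor recombination and of the pre-T cell receptor, were followed through 25 lists of chromatin immunoprecipitation (ChIP-seq) peaks. The 4 genes were chosen by name for their shared role, out of 21631 protein-coding genes of the mouse autosomes and X. Each was described by the window of its gene body with 50 kb on both sides, and by the length in bp of that window lying under called peaks. Rag1 and Rag2 are neighbours whose windows shared 94277 bp, 84.7% of the Rag1 window and 87.4% of the Rag2 window, so the 4 genes stood for 3 separate loci and the values of Rag1 and Rag2 are not independent.

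The study asked how TCF-1, a transcription factor of early T cell development encoded by Tcf7, takes part in the folding of the genome. Scid.adh is a mouse thymic lymphoma line taken as a model of DN3 thymocytes, the stage of pre-T cell receptor selection, and as its name records it comes from a scid mouse, so its KO and empty vector cells both carry the Prkdc mutation. DN3 cells were either a knockout of TCF-1 (KO) or carried an empty vector (titled wild type), and each condition had 2 lists for CTCF, SMC1, NIPBL and H3K27ac, while TCF-1 had 2 lists of empty vector cells. NIH-3T3, a mouse embryonic fibroblast line, was induced to express TCF-1 or left untreated, with 2 CTCF lists and 1 SMC1 list per condition and 1 TCF-1 list of induced cells. Whether the KO cells were a clone or a pool, and whether lists of a condition came from separate cultures, is not given in the sources used here, so spread between lists may be technical.

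RAG1 and RAG2 form the recombinase that cuts antigen receptor genes at their recombination signals, and both genes are active in the DN3 and later stages when receptor genes are rearranged. Dntt encodes terminal deoxynucleotidyl transferase (TdT), which adds untemplated nucleotides at the joints, and Ptcra encodes pre-Tα, the invariant chain that pairs with a newly rearranged TCRβ chain in the pre-T cell receptor. CTCF marks the bases of chromatin loops, SMC1 is a subunit of the cohesin ring that extrudes them, NIPBL loads cohesin and H3K27ac marks active promoters and enhancers.

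All coordinates are on mm10. The Rag2 window was chr2:101574712-101682528, with the gene at chr2:101624712-101632528 on the plus strand, and the Rag1 window was chr2:101588252-101699532, with the gene at chr2:101638252-101649532 on the minus strand, so that the convergent genes end 5723 bp apart. Inside these windows also lie parts of Iftap and Traf6 and the long non-coding RNA gene Gm34041. The Ptcra window was chr17:46705663-46813712, with the gene at chr17:46755663-46763712 on the minus strand, among Gm52314, Pex6, Gnmt, Cnpy3, 2310039H08Rik, Rpl7l1 and Bicral. The Dntt window was chr19:40979275-41109525, with the gene at chr19:41029275-41059525 on the plus strand, among Blnk, C330026H20Rik, Gm4269, Opalin and Tll2. Peaks in a window can belong to any of these genes, and exons were not used here.

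The 250 bases before each transcription start are shown because peaks of H3K27ac, NIPBL, SMC1 or TCF-1 lay on those of Rag1, Ptcra and Dntt, while those of Rag2 were under a peak in 1 list. They are RefSeq sequence of GRCm38.p6, written 5′ to 3′ on the strand of the gene, and capitals mark the E-box letters CAGCTG and CAGGTG (bound by E proteins such as E2A and HEB) and the letters TGTGGT of RUNX factors.
Rag1, chr2:101649533-101649782, minus strand: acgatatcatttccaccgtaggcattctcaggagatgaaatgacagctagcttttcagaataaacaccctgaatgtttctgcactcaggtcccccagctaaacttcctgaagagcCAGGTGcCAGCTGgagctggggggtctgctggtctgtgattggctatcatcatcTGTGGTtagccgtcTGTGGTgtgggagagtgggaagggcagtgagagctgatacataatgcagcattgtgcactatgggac
Rag2, chr2:101624462-101624711, plus strand: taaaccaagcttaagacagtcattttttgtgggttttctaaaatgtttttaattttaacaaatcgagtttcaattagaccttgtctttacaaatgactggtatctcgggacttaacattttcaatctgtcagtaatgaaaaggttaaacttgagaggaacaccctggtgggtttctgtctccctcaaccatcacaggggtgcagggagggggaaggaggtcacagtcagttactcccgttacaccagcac
Ptcra, chr17:46763713-46763962, minus strand: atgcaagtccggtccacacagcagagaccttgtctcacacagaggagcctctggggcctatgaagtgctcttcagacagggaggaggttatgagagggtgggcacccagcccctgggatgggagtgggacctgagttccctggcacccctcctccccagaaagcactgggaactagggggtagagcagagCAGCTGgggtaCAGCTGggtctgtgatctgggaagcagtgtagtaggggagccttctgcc
Dntt, chr19:41029025-41029274, plus strand: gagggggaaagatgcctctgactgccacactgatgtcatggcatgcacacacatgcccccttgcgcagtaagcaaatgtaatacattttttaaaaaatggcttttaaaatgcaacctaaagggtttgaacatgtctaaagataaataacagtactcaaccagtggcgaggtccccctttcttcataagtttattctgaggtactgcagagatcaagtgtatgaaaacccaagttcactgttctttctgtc
Ptcra held CAGCTG at 2 places, Rag1 held CAGCTG and CAGGTG at 1 place each and TGTGGT at 2, and the 250 bases of Rag2 and of Dntt held none of the letters searched. CTTTGA, the core letters of TCF and LEF factors, was in none of these 4 stretches of 250 bases on either strand. Over all 32851 promoters of the table, 13.0% held CAGCTG, 17.2% held CAGGTG, 14.0% held TGTGGT and 13.8% held CTTTGA on either strand, so a match is common and describes the letters only.

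DN3 lists held 16.6 to 27.8 Mb of CTCF peaks, 37.5 to 56.4 Mb of SMC1, 4.85 to 19.5 Mb of NIPBL, 89.5 to 91.6 Mb of H3K27ac and 1.94 to 2.04 Mb of TCF-1. Fibroblast lists held 17.8 to 37.6 Mb of CTCF, 94.4 and 97.7 Mb of SMC1 and 17.2 Mb of TCF-1. Read totals were not used here, so depth is unknown, and a list that covers more of the genome covers more of most windows. The first NIPBL list of KO cells stood apart, with 23948 peaks over 19.5 Mb against 8.67 Mb in the second KO list and 4.85 and 9.69 Mb in the empty vector lists. All 10 T lineage markers, among them Cd3e, Lck and Bcl11b, lay in windows with H3K27ac in every DN3 list, with a summed coverage of 540306 to 541598 bp in KO and 530215 to 531004 bp in empty vector lists. Of 10 fibroblast markers, 4 to 5 had any H3K27ac peak in DN3 lists, and SMC1 covered 26286 to 31383 bp of their windows in DN3 lists against 294620 and 324232 bp in fibroblast lists. The window of Tcf7, the targeted gene, had 78391 and 81886 bp of H3K27ac in KO and 82431 and 82694 bp in empty vector lists. Peak positions cannot show a deletion or the loss of the protein, which is taken from the labels.

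Acetylation covered more of each of the 4 windows in KO lists. H3K27ac peaks covered 29040 and 28704 bp of the Rag1 window in the KO lists, against 19044 and 17434 bp in the empty vector lists. In the Rag2 window they covered 38923 and 40071 bp in KO and 25713 and 23016 bp in empty vector lists. The lists of KO cells lay above both empty vector lists in each case, with mean ratios of 1.58 for Rag1 and 1.62 for Rag2. The Dntt window, around the TdT gene, had 28125 and 29790 bp in KO and 18076 and 14984 bp in empty vector lists, a ratio of 1.75 with no overlap. Ptcra, the pre-Tα gene, moved least, with 35654 and 34498 bp in KO against 31845 and 33202 bp in empty vector lists, a ratio of 1.08, and its groups also did not overlap. Thus 4 of 4 members were higher in every KO list, where 28.5% of 15918 windows with H3K27ac were higher by this rule and 35.6% were lower. With 2 lists against 2 the smallest 2-sided exact permutation p is 0.333, which each member had, so groups without overlap were counted in place of a threshold on p. With flanks of 10 kb the difference at Ptcra turned to -1254 bp.

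Markers of other cell types were covered in the same lists. Of 10 fibroblast marker windows, 5 had any H3K27ac in each KO list and 4 and 5 in the empty vector lists, with summed coverage of 51970 to 58040 bp in KO and 34055 to 35860 bp in empty vector lists. Col1a2, Col3a1, Twist1 and Thbs1 were at 0 in all 4. Of 6 myeloid marker windows 5 had H3K27ac in each list, summing to 86515 to 88578 bp in KO and 76381 to 81345 bp in empty vector lists, with Lyz2 at 0. Of 8 B lineage windows 6 had H3K27ac in each list, summing to 76718 to 79797 bp in KO and 75449 to 77095 bp in empty vector lists, with Blk at 0. One of these, Blnk, an adaptor gene of B cells, reaches into the Dntt window. By the rule used for the members, 4 of 10 fibroblast, 2 of 6 myeloid and 3 of 8 B lineage windows were higher in KO, and 0, 0 and 4 were lower, beside the 28.5% and 35.6% of all windows. Those shares leave out windows without H3K27ac, whereas only 6 fibroblast, 5 myeloid and 7 B lineage windows had any. Their part in the result was not tested.

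**Figure D1:**
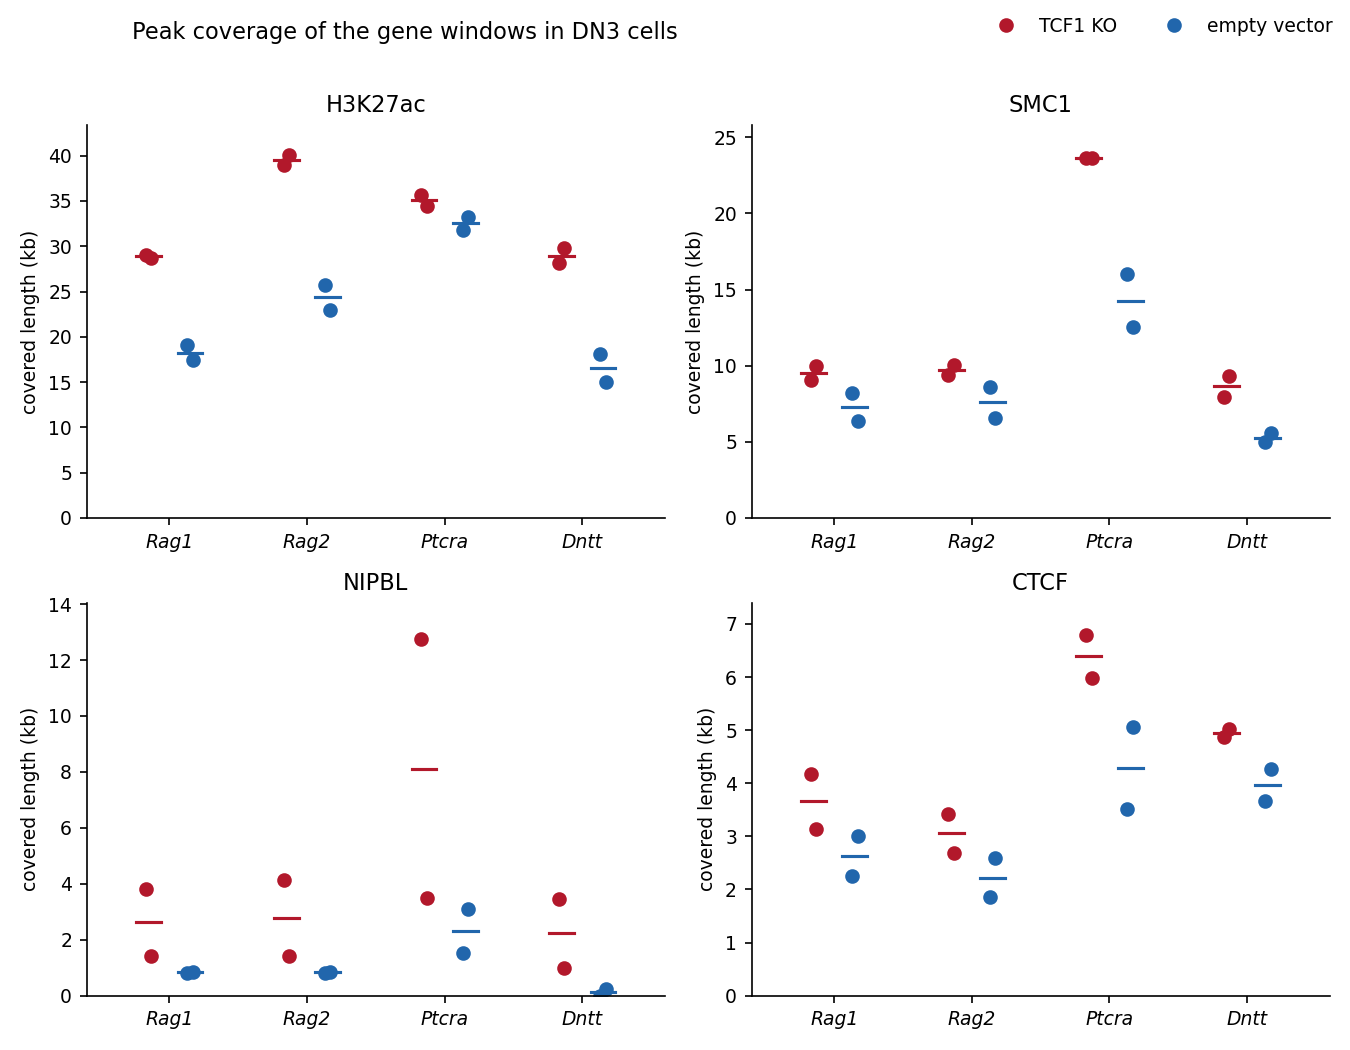
Covered length in kb of the window of each gene (gene body with 50 kb on both sides) in DN3 cells, in 1 panel per antibody. Each point is 1 list, TCF1 KO left of empty vector, and bars are means of 2 lists; every KO point lies above both empty vector points of the same gene and antibody.

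The increase stood out in size at the Rag locus and at Dntt. Mean coverage was higher in KO lists by 10633 bp at Rag1, 15132 bp at Rag2, 12428 bp at Dntt and 2552.5 bp at Ptcra. Per kb of window, a larger increase was found at 0.389% of windows than at Rag2, 1.23% than at Rag1, 1.24% than at Dntt and 10.1% than at Ptcra. The median difference was 95.48 bp per kb over the 4 members and -0.54 bp per kb over all windows. KO and empty vector H3K27ac lists covered nearly the same length in all, and as shares of the list the 4 members had the same ratios and calls, beside 28.7% of windows higher and 35.5% lower.

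Coverage rose with little change in the number of peaks, which can stay level where some peaks join and others are added. Over the whole genome, too, KO lists had fewer and wider H3K27ac peaks. They held 36540 and 37625 peaks of median width 1564 and 1529 bp. Empty vector lists held 38827 and 42180 peaks of median width 1454 and 1339 bp. At Dntt 2 H3K27ac regions were in both KO lists and in no empty vector list. The Rag2 window held 10 and 9 H3K27ac peaks in KO and 10 and 11 in empty vector lists, and the Dntt window 5 and 6 in KO and 5 in each empty vector list. No member was called on peak number. The widest peak at the Rag locus was 13761 and 27254 bp in KO lists, against 5778 and 6458 bp in empty vector lists. In the second KO list, 86 peaks of the whole list were wider than that one, which lies mostly in Iftap and begins outside the Rag2 window. At Dntt the widest peak was 25952 and 16938 bp in KO against 5107 and 6321 bp in empty vector lists, and in both KO lists it ran without a break from upstream of the start into the gene (chr19:41015360-41041311 and chr19:41015422-41032359). Joining peaks across gaps of up to 2 kb, an alternative chosen after seeing the data, left 4 of 4 members higher in KO. At Ptcra the widest peak measured 14110 and 14239 bp in KO lists and already 16176 and 14565 bp in empty vector lists, and covered the start of the gene in all 4.

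The fold enrichment that the authors gave each peak differed by locus. The peak over the Rag1 start had a fold of 4.29 and 4.33 in KO and 3.85 and 3.89 in empty vector lists, and the medians over the peaks of the Rag locus were 3.92 and 4.06 in KO and 3.75 and 3.89 in empty vector lists. At Dntt the peak over the start had a fold of 5.76 and 5.71 in KO and 5.88 and 6.1 in empty vector lists, and the medians over the peaks of the locus were 3.02 and 3.65 in KO and 4.34 and 4.52 in empty vector lists. Both values were thus higher in the KO lists at the Rag locus and lower at Dntt. The medians of the Rag locus include peaks in Iftap and at Traf6. The start peaks of Dntt were of unlike width, 25952 and 16938 bp in KO and 5107 and 3502 bp in empty vector lists. Their folds are therefore not of like stretches. Within the stretch of the first KO peak, the first empty vector list had separate peaks with folds of 4.58, 4.15, 5.88, 3.12 and 4.34. The medians are over differing sets of peaks, since at Dntt peaks joined in KO lists and others of low fold were added. The peak of highest fold in the Rag locus had a fold of 7.93 and 7.72 in KO and 8.03 and 8.0 in empty vector lists. It lay at Traf6, away from both Rag genes (chr2:101678195-101679602 in the first empty vector list). At Ptcra the peak over the start had a fold of 7.94 and 7.68 in KO and 7.4 and 7.69 in empty vector lists. These folds are the authors' own values for single peaks and were not tested.

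Transcription starts differed among the members. The H3K27ac peak over the Rag1 start was 7054 and 7281 bp wide in KO lists, against 5268 and 1478 bp in empty vector lists. In the second empty vector list a separate peak of 2652 bp began 840 bp upstream of the start (chr2:101650372-101653023). It lies within the stretch of the single KO peaks. At the Rag2 start a peak was called in 1 of 4 lists, the first KO list, with a width of 537 bp and a fold of 2.78, where 80.4% of the peaks of that list were wider. The peak over the Dntt start was 25952 and 16938 bp wide in KO and 5107 and 3502 bp in empty vector lists. All 4 lists of DN3 cells thus had acetylation over the starts of Rag1, Ptcra and Dntt. Within Dntt, regions at chr19:41045312-41046127 and chr19:41051846-41054839, which lie 16037 and 22571 bp downstream of the start, were in both KO lists and in no empty vector list.

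**Figure D2:**
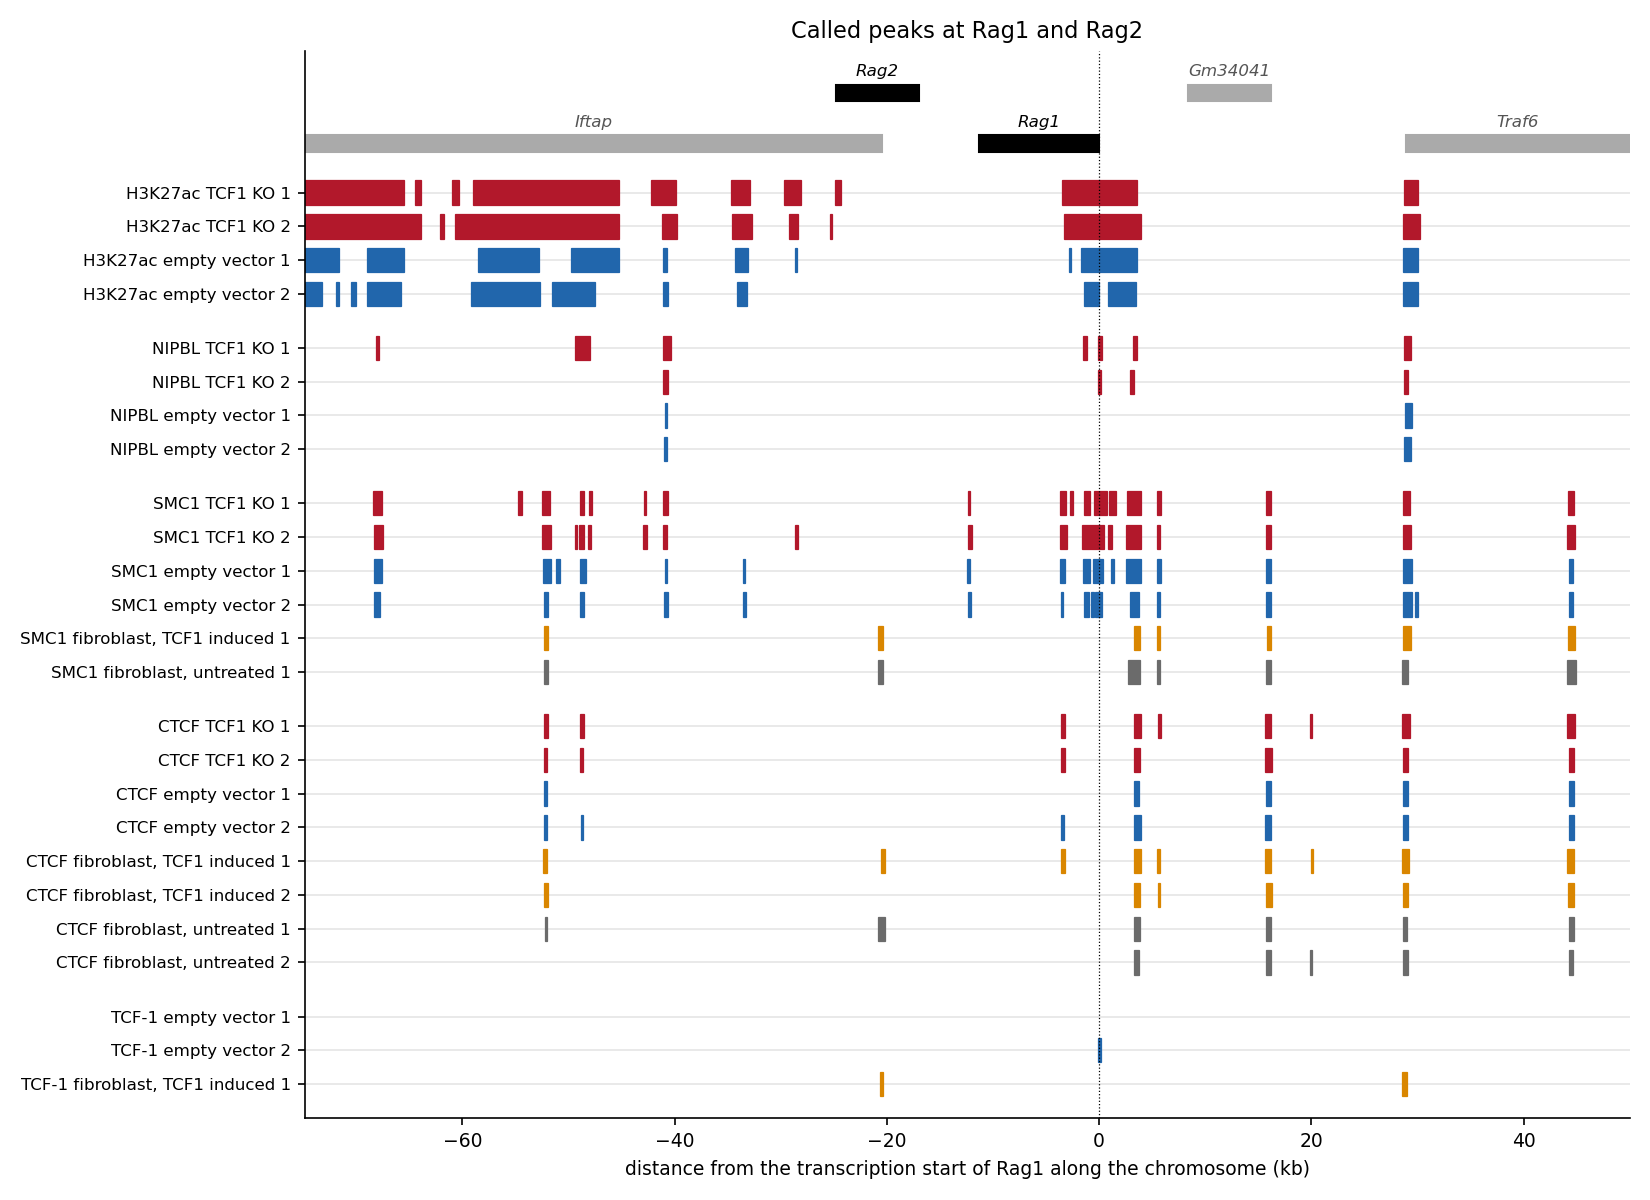
Called peaks of every list around Rag1 and Rag2, drawn as boxes along the distance in kb from the transcription start of Rag1 (dotted line), with gene bodies on top. H3K27ac boxes of KO lists are longer than those of empty vector lists over Iftap and at the Rag1 start, and NIPBL boxes at the Rag1 start are in the KO lists.

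Cohesin covered more of every member window in KO lists, as it did in most windows of the genome. SMC1 peaks covered 9080 and 9955 bp of the Rag1 window in KO and 8194 and 6380 bp in empty vector lists. The Rag2 window had 9363 and 10036 bp in KO and 8615 and 6557 bp in empty vector lists. Neither pair overlapped, though the first empty vector list came close in both, and without the second empty vector list the differences were 1324 bp at Rag1 and 1084 bp at Rag2, against 2230.5 and 2113.5 bp with it. Ptcra had 23624 and 23643 bp in KO against 16044 and 12511 bp in empty vector lists, a ratio of 1.66. Dntt had 7967 and 9345 bp in KO against 4969 and 5568 bp in empty vector lists, a ratio of 1.64. All 4 members were higher, beside 73.8% of 19432 windows higher and 1.14% lower, so the count is near that of the genome. The increase per kb at Ptcra was exceeded at 0.674% of windows, and that at the other members at 14.4% to 21.7%. With flanks of 10 kb the difference at Rag2 was -87 bp.

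The direction of SMC1 at the Rag genes depended on list length. KO lists covered 52.3 and 56.4 Mb and empty vector lists 37.5 and 38.7 Mb, and as a share of these totals 15.9% of windows were higher and 32.6% lower. On that scale Rag1 averaged 175 bp per Mb in KO and 192 bp per Mb in empty vector lists, and Rag2 179 bp per Mb in KO and 200 bp per Mb in empty vector lists, so both turned to lower means with overlapping groups. Dntt alone stayed higher without overlap, with 159 bp per Mb in KO and 138 bp per Mb in empty vector lists. Ptcra averaged 436 bp per Mb in KO and 376 bp per Mb in empty vector lists, and its groups overlapped.

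Of the 4 antibodies compared between KO and empty vector cells, NIPBL covered the least of these windows in empty vector cells. The Dntt window had 3474 and 1003 bp in KO lists, against 0 and 229 bp in empty vector lists. Rag1 had 3831 and 1404 bp in KO and 802 and 859 bp in empty vector lists, and Rag2 had 4132 and 1404 bp in KO and the same 802 and 859 bp in empty vector lists. Ptcra had 12743 and 3497 bp in KO and 1535 and 3110 bp in empty vector lists. No groups overlapped, and 4 of 4 members were higher beside 26.6% of 16074 windows higher and 0.348% lower. The second KO list carried a much smaller difference than the first. Without the first KO list the differences were 573.5 bp at Rag1 and at Rag2, 1174 bp at Ptcra and 888.5 bp at Dntt, against 1787, 1937.5, 5797.5 and 2124 bp with it. Without the second KO list they were 3000, 3302, 10420 and 3360 bp. Their direction could not change, since leaving out a list cannot make groups without overlap overlap. As a share of list coverage, where 13.3% of windows were higher and 21.5% lower, Ptcra and Dntt remained higher without overlap and Rag1 and Rag2 overlapped.

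Single NIPBL sites near the starts were called in KO lists and not in empty vector lists. A region over the Rag1 start, chr2:101649433-101649814, held a peak in both KO lists (382 and 228 bp wide) and in no empty vector list, and lies over the promoter bases shown above. The same was true of chr2:101652408-101653076, 2876 bp upstream of Rag1, and of chr19:41030968-41031345 and chr19:41038985-41039504 inside Dntt. These peaks were weak, with folds of 2.73 and 2.52 at the Rag1 start in the KO lists. At the Ptcra start a NIPBL peak was in both KO lists and in 1 of the empty vector lists.

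**Figure D3:**
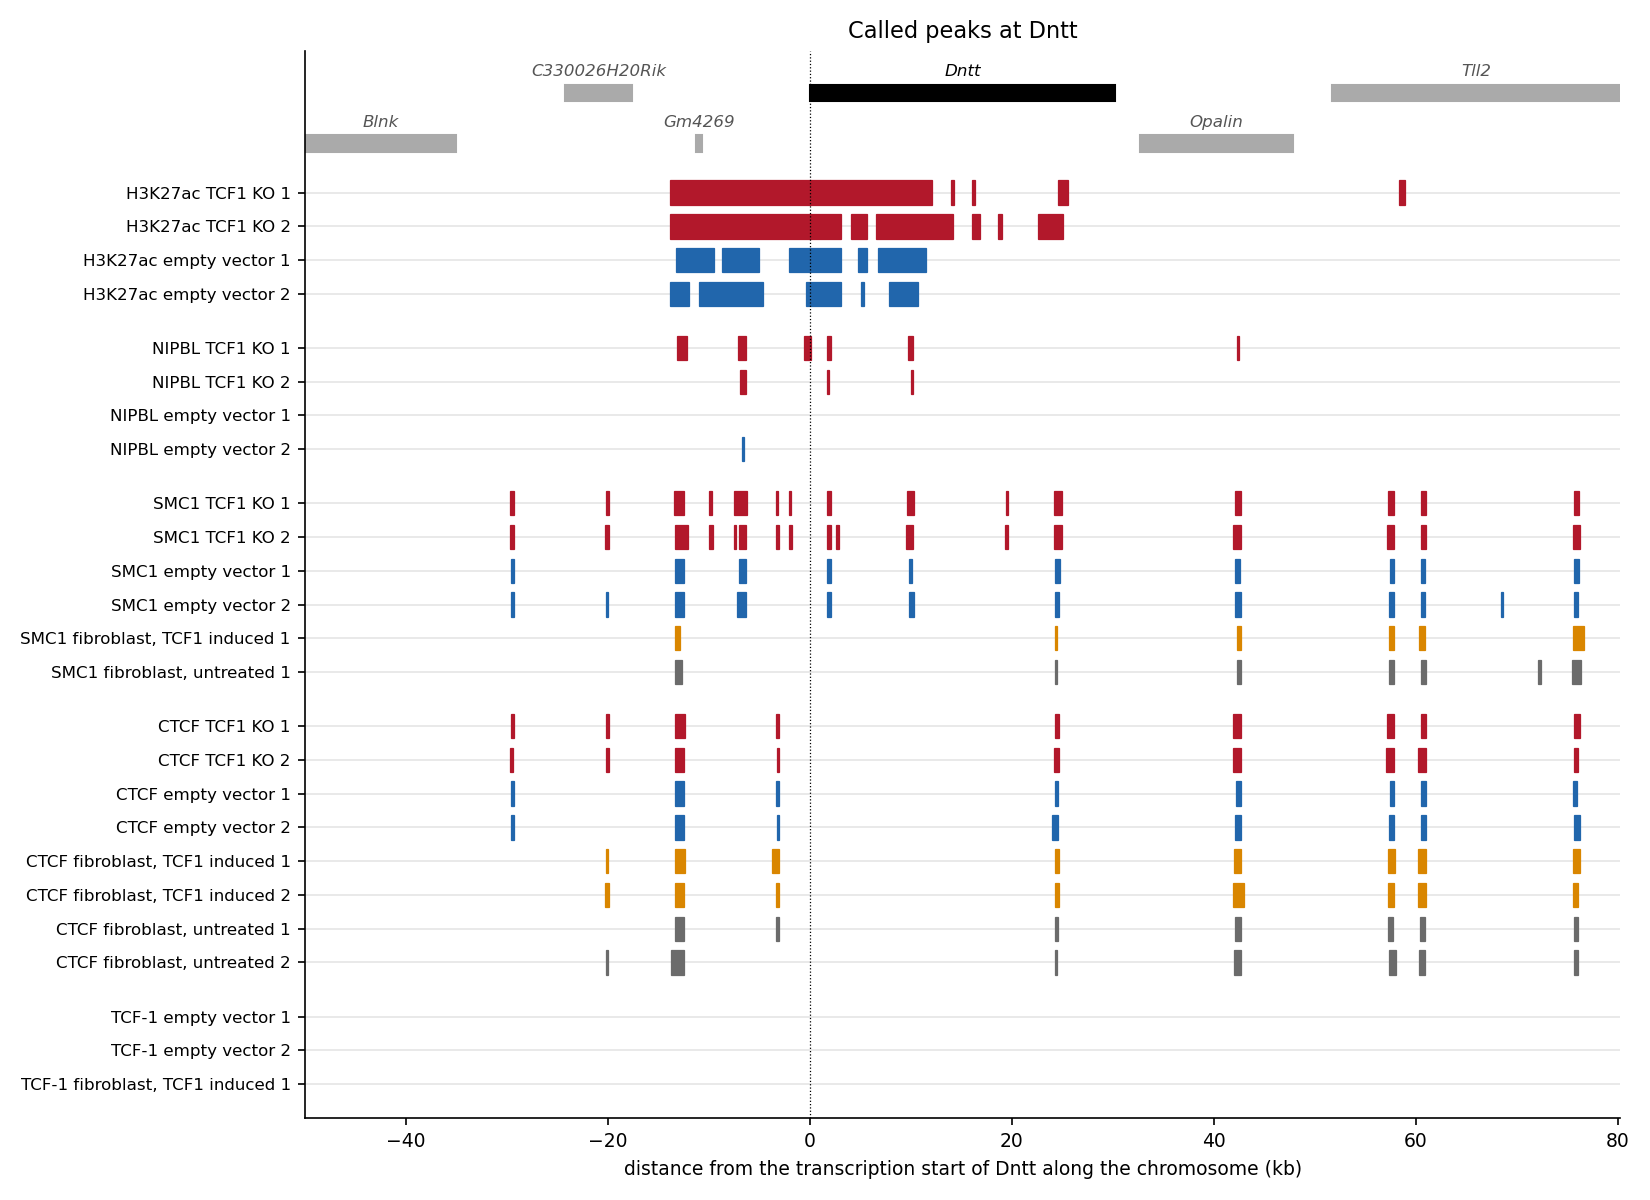
Called peaks of every list around Dntt, drawn as boxes along the distance in kb from its transcription start (dotted line), with gene bodies on top. In the KO lists H3K27ac runs unbroken from upstream over the start, while the empty vector lists show separate boxes, and no TCF-1 list has a peak in the window.

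CTCF coverage was also higher in KO lists at every member. Rag1 had 4180 and 3139 bp in KO and 2254 and 3007 bp in empty vector lists, and Rag2 had 3430 and 2693 bp in KO and 1850 and 2584 bp in empty vector lists. The closest lists of the 2 conditions differed by little at both genes. Ptcra had 6799 and 5982 bp in KO against 3518 and 5054 bp in empty vector lists, a ratio of 1.49. Dntt had 4868 and 5014 bp in KO against 3670 and 4277 bp in empty vector lists, a ratio of 1.24. All 4 members were higher without overlap, beside 44.1% of 19348 windows higher and 0.413% lower. The differences of 1029 bp at Rag1 and 844.5 bp at Rag2 were 508.5 and 476 bp without the first KO list and 652.5 and 477.5 bp without the first empty vector list, which also brought Ptcra to 1336 bp; without the second KO list Rag1 was at 1550 bp. With flanks of 10 kb the differences turned to -120 bp at Ptcra and -60.5 bp at Dntt. Scaled by list coverage, 17.6% of windows were higher and 25.4% lower, Rag2 and Ptcra remained higher, Rag1 overlapped, and Dntt had the lower mean in KO (196 bp per Mb, against 203 bp per Mb in empty vector lists).

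Every member was thus higher in KO lists for all 4 antibodies, which held at 607 of 19765 windows with a peak of any of them (3.07%). Fewer windows could meet this rule, since only 16074 had NIPBL and 15918 had H3K27ac. The share among windows that could be called is therefore larger. That joint count rests on coverage as called, since scaling by list coverage ended 2 of the 4 calls for CTCF, 3 for SMC1 and 2 for NIPBL, and none for H3K27ac.

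Merged regions showed which sites were called in 1 condition and not in the other. They hold only a part of the extra coverage. At the Rag locus 0 H3K27ac regions were only in KO lists, although H3K27ac covered more of both Rag windows in KO. Across the 3 loci, 21 regions were in both KO lists and in no empty vector list, 11 of them for SMC1, 4 for CTCF, 4 for NIPBL and 2 for H3K27ac, and 1 was in both empty vector lists and in no KO list. In the genome, regions only in KO lists made up 9.26% for SMC1, 6.36% for CTCF, 5.88% for NIPBL and 4.82% for H3K27ac. Regions only in empty vector lists made up 0.968%, 0.46%, 0.251% and 7.99% in the same order. The single region only in empty vector lists held SMC1 at chr2:101615932-101616242, in Iftap 8470 bp upstream of Rag2. At Dntt, KO lists added SMC1 at chr19:41025919-41026242, 3033 bp upstream of the start, on a CTCF region present in all 4 DN3 lists. A further SMC1 region 1802 bp upstream of Dntt and a CTCF region in C330026H20Rik, 19919 bp upstream of Dntt, were also only in KO lists. At Ptcra, SMC1 was added in Pex6, at 2 places in Cnpy3 and at 2 places between genes, 32191 and 8513 bp downstream of the start, and CTCF was added in Pex6, in Bicral and between genes. The region 8513 bp downstream lies just past the end of Ptcra.

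CTCF sites were shared to a differing degree. At the Rag locus 5 of 9 CTCF regions were in all 4 DN3 lists, at Ptcra 7 of 18 and at Dntt 8 of 9, against 55.2% of CTCF regions in the genome. No CTCF list of either cell line had a peak over the start of any member. SMC1 lay over the Rag1 start in all 4 DN3 lists, 1158 and 2038 bp wide in KO and 959 and 646 bp in empty vector lists. At the Ptcra start it was 1225 and 989 bp wide in KO and 288 and 433 bp in empty vector lists. No SMC1 list had a peak over the start of Rag2 or Dntt.

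**Figure D4:**
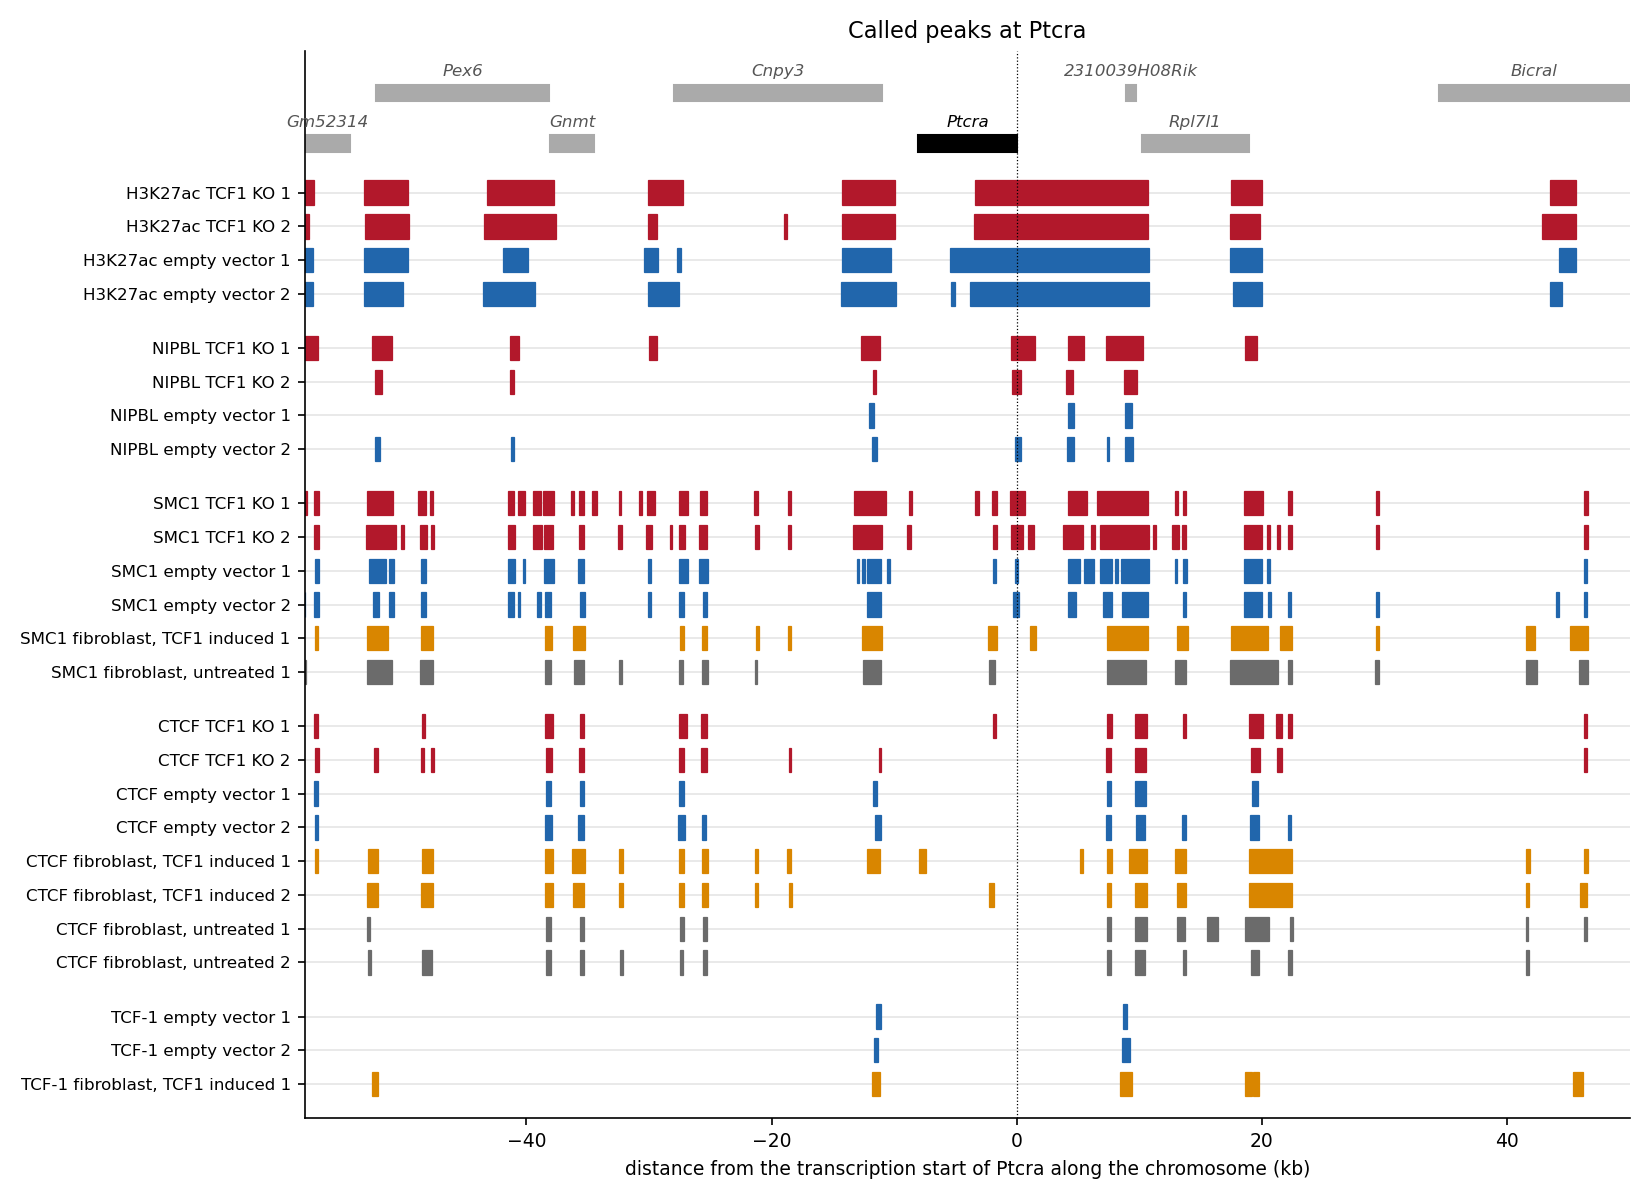
Called peaks of every list around Ptcra, drawn as boxes along the distance in kb from its transcription start (dotted line), with gene bodies on top. H3K27ac covers the start in all 4 DN3 lists, SMC1 lies over the start in the DN3 lists and not in the fibroblast lists, and both DN3 TCF-1 lists have their 2 peaks away from the start.

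TCF-1 itself was seldom called near these genes in DN3 cells. The first empty vector list had no TCF-1 peak in the Rag windows, and the second had 1 peak of 303 bp at chr2:101649412-101649714, over the Rag1 start and the promoter bases shown above. Of the peaks of that list, 51.5% were wider. The Ptcra window had 2 peaks in each DN3 list, 771 and 845 bp in all, in Cnpy3 and at 2310039H08Rik, and none on Ptcra. No TCF-1 peak lay in the Dntt window in any list. In the genome, 33.6% of gene windows had a TCF-1 peak in both DN3 lists, so Ptcra was among these and the other members were not.

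Induced fibroblasts had TCF-1 at further places in the Rag and Ptcra windows. Their list covered 724 bp in the Rag windows with 2 peaks, at chr2:101628877-101629203 in the bodies of Rag2 and Iftap and at chr2:101678101-101678497 at Traf6, and 3807 bp in the Ptcra window with 6 peaks. Both DN3 sites of the Ptcra window overlapped fibroblast peaks, as did 77.8% of the 3117 TCF-1 regions held by both DN3 lists. A TCF-1 peak was in 76.3% of all windows in the fibroblast list. DN3 coverage was below the fibroblast value without overlap at Rag1, Rag2 and Ptcra, beside 95.4% of 16780 windows lower and 1.78% higher. The smallest exact p is 0.667 for 2 lists against 1. As a share of list coverage, 34.7% of windows were higher in DN3 cells and 48.9% lower, no member was lower, and Ptcra was higher (405 bp per Mb, against 222 bp per Mb in fibroblasts).

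In fibroblasts, CTCF covered more of each window with TCF-1, the opposite direction to DN3 cells (exact permutation p of the difference 0.0556 at each member, the smallest that 36 arrangements allow). CTCF was higher both in KO and in induced lists at 40.7% of 19702 windows. Ptcra had 14044 and 12128 bp in induced and 7081 and 5057 bp in untreated lists, a ratio of 2.16 whose difference per kb was exceeded at 0.341% of windows. Rag1 had 4177 and 2869 bp in induced and 2718 and 1949 bp in untreated lists. Rag2 had 3533 and 2339 bp in induced and 2309 and 1536 bp in untreated lists. Dntt had 5131 and 4917 bp in induced and 3525 and 4045 bp in untreated lists. No groups overlapped, and 4 of 4 members were higher beside 94.4% of 19370 windows higher and 0.0878% lower. The differences of 1189.5 bp at Rag1 and 1013.5 bp at Rag2 were 535.5 and 416.5 bp without the first induced list and 1844 and 1610 bp without the second, and without the second untreated list Rag2 was at 627 bp. With flanks of 10 kb the difference at Rag2 turned to -141.5 bp. CTCF regions in both induced lists and in no untreated list, 21.2% of all, numbered 1 at the Rag locus, 5487 bp upstream of Rag1, 2 at Ptcra, both in Cnpy3, and 0 at Dntt. Scaled by list coverage, where 25.5% of windows were higher and 28.6% lower, Rag1, Rag2 and Dntt turned to lower means in induced cells, Dntt without overlap at 140 bp per Mb against 200 bp per Mb in untreated lists, and Ptcra overlapped.

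SMC1 in fibroblasts, with 1 list per condition and no replicate check, showed no change past 1.5 times at any member, where 3.03% of 19209 windows were higher and 9.94% lower by that rule. Rag1 had 3416 bp in induced and 4141 bp in untreated cells, and Rag2 2746 bp in induced and 3325 bp in untreated cells. Ptcra had 19256 bp in induced and 18122 bp in untreated cells, and Dntt 3237 bp in induced and 3397 bp in untreated cells.

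Cell lines differed in cohesin at the Rag and Dntt loci. The DN3 lists here pool KO and empty vector cells, and the fibroblast lists pool induced and untreated cells. Each SD thus includes the difference between conditions, and the exact p counts lists of both TCF-1 states together. SMC1 covered 8402 ± 1530 bp of the Rag1 window in DN3 lists and 3778.5 ± 513 bp in fibroblast lists (SD, n = 4 and 2), a ratio of 2.22. Rag2 had 8643 ± 1510 bp in DN3 and 3035.5 ± 409 bp in fibroblast lists, a ratio of 2.85. Dntt had 6962 ± 2050 bp in DN3 and 3317 ± 113 bp in fibroblast lists, a ratio of 2.10. All 4 DN3 lists lay above both fibroblast lists at these 3 genes, with the smallest exact permutation p that 4 lists against 2 allow, 0.133, beside 9.95% of 19794 windows higher and 63.4% lower by that rule. Ptcra had 18956 ± 5590 bp in DN3 and 18689 ± 802 bp in fibroblast lists, and the groups overlapped: both KO lists lay above and both empty vector lists below the fibroblast lists. Fibroblast lists covered 94.4 and 97.7 Mb against at most 56.4 Mb in DN3 cells. As a share of list coverage, 44.4% of windows were higher in DN3 and 26.7% lower, and all 4 members were higher, with ratios of 4.67 at Rag1, 6.0 at Rag2, 2.08 at Ptcra and 4.31 at Dntt.

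**Figure D5:**
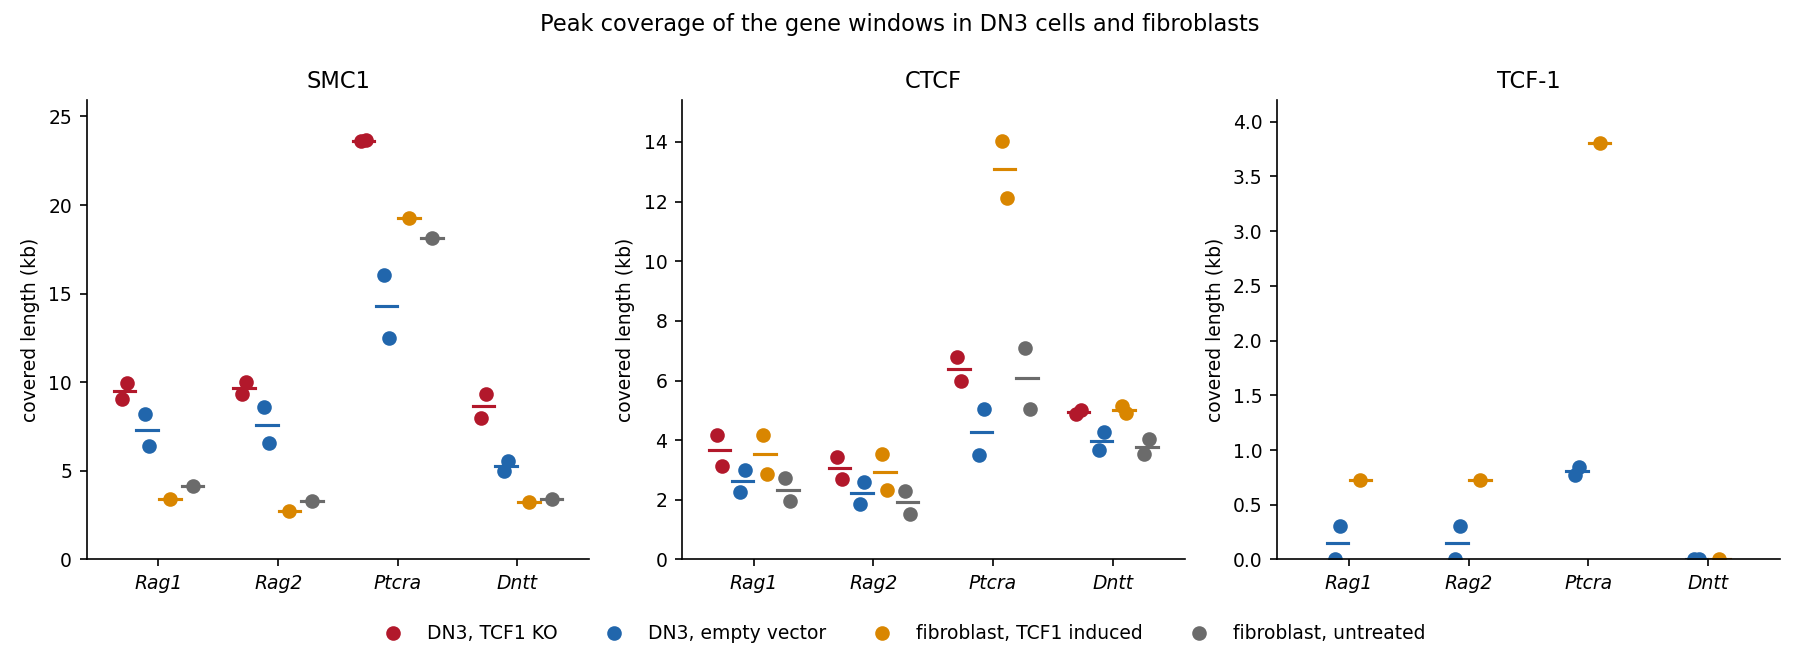
Covered length in kb of each gene window for SMC1, CTCF and TCF-1 in both cell lines. Each point is 1 list and bars are means; for SMC1 at Rag1, Rag2 and Dntt every DN3 point lies above the fibroblast points, while CTCF points of the cell lines overlap at all 4 genes.

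Sites behind the difference in SMC1 lay at and around the genes. At the Rag locus 6 of 23 SMC1 regions were in all 4 DN3 lists and in no fibroblast list, at Ptcra 4 of 35 and at Dntt 4 of 18, against 6.12% of SMC1 regions in the genome. Regions in every list of both lines numbered 6, 12 and 6 at these loci, against 20.9%. Those of DN3 cells included the Rag1 start (chr2:101647915-101650247), the Ptcra start (chr17:46763118-46764342), a region 6291 bp upstream of Dntt (chr19:41021734-41022984) and 2 regions inside Dntt that are also the sites where NIPBL was called only in KO lists. Regions in both fibroblast lists and in no DN3 list numbered 1 at the Rag locus, 1 at Ptcra and 0 at Dntt, where 19.0% of SMC1 regions in the genome were of that kind. That of the Rag locus (chr2:101628687-101629198, in Rag2) overlapped the TCF-1 peak of induced fibroblasts, and CTCF was called there in 1 induced and 1 untreated list. SMC1 was called there in untreated cells too.

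Many SMC1 peaks of DN3 cells at these genes had no CTCF. At the Rag locus 10 of 18 and 9 of 17 SMC1 peaks of the KO lists and 9 of 16 in each empty vector list overlapped no CTCF peak of the same condition, 52.9% to 56.2%, where the share of the whole lists was 41.8% to 42.9%. At Ptcra the share was 46.9% and 48.5% in KO and 63.0% and 56.0% in empty vector lists, and at Dntt 40.0% and 47.1% in KO and 30.0% and 41.7% in empty vector lists. Fibroblasts had few such peaks at the Rag locus, 0 of 7 in induced and 1 of 7 in untreated cells, where 44.5% and 61.1% of the peaks of those lists lacked CTCF.

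CTCF coverage of the cell lines overlapped at every member. Lists of both TCF-1 states were again pooled within each line, so each SD includes the difference between conditions. Coverage was 3145 ± 793 bp at Rag1 in DN3 and 2928 ± 925 bp in fibroblast lists (SD, n = 4 each, exact permutation test, 2-sided, p = 0.657, adjusted p = 0.83 over all windows). Rag2 had 2639 ± 647 bp in DN3 and 2429 ± 824 bp in fibroblasts (exact p = 0.686, adjusted p = 0.848), and Dntt 4457 ± 614 bp in DN3 and 4404.5 ± 751 bp in fibroblasts (exact p = 0.886, adjusted p = 0.959). Ptcra had 5338 ± 1410 bp in DN3 and 9577.5 ± 4210 bp in fibroblasts (exact p = 0.114, adjusted p = 0.416), with the 2 induced lists far above all others. Of 19702 windows, 0 passed an adjusted p of 0.05 and 2705 (13.7%) had an unadjusted p under it, since with a smallest p of 0.0286 an adjusted call would need 57.1% of windows at that value. The share of windows called was 0.0% in either direction. Groups did not overlap at 3.15% of windows with DN3 higher and at 10.6% with DN3 lower, and as shares of list coverage, with no member called, at 21.3% and 17.3%.

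Individual CTCF sites were called in 1 line and not in the other. At Dntt, chr19:40999570-40999967, 29308 bp upstream, was in all 4 DN3 lists and no fibroblast list, and SMC1 lay there in all 4 DN3 lists and no fibroblast list. At Ptcra, chr17:46805223-46805534 in Bicral was in all 4 fibroblast lists and no DN3 list, again with SMC1 in both fibroblast lists only. In the genome 2.36% of CTCF regions were in all DN3 and no fibroblast lists and 3.21% the reverse. CTCF was in every list of both lines at 4 of 10 regions of the Rag locus, 6 of 21 at Ptcra and 6 of 9 at Dntt, against 30.0% of CTCF regions.

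Other genes of the pathway are given beside the share of all windows, 28.5% of which were higher in H3K27ac coverage in KO lists and 35.6% lower. Of 10 end joining genes, which seal the ends that RAG cuts, 3 were higher (Xrcc4, Xrcc6 and Poll) and 3 lower (Xrcc5, Dclre1c and Paxx) in H3K27ac coverage in KO lists. Xrcc6, the Ku70 gene, had the most, with 41291 and 42132 bp in KO and 37685 and 36302 bp in empty vector lists. Xrcc4, a ligase partner, had the least, with 3708 and 3591 bp in KO and 3051 and 2742 bp in empty vector lists. Hmgb1 and Hmgb2, DNA-bending cofactors of RAG, were neither higher nor lower in H3K27ac. Of 10 partners and kinases of the pre-T cell receptor, 5 were higher and 1, Lcp2, was lower, with most at Fyn, a Src family kinase gene (85203 and 95726 bp in KO, 78121 and 81736 bp in empty vector lists), and least at Syk, a kinase gene (1057 and 1354 bp in KO, 1677 and 618 bp in empty vector lists, which overlapped). The higher genes were Fyn, the kinase gene Zap70 and the neighbours Cd3d, Cd3e and Cd3g, signalling chains of the receptor whose windows share peaks (Cd3e had 60662 and 58840 bp in KO and 48339 and 50345 bp in empty vector lists).

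Of 12 factors listed as reported upstream of the members, 4 were higher in H3K27ac and 1 was lower, against the same shares of all windows. That role was not tested here. The higher ones were Tcf3 and Tcf12, which encode the E proteins E2A and HEB, Bcl11b, a commitment factor gene, and Foxo1, a forkhead factor gene. Runx1, the most covered, was the lower one, with 90500 and 101248 bp in KO and 112562 and 108104 bp in empty vector lists. Rbpj, the DNA-binding partner of Notch, was least covered, with 8950 and 8435 bp in KO and 8320 and 9082 bp in empty vector lists, and overlapped. Of 4 pre-B cell receptor genes, counterparts of Ptcra in B cells, 2 were higher and 1, Vpreb3, was lower, and the 2 higher ones, Igll1 and Vpreb1, had the same values since their windows lie together. Apart from the most and least covered genes of each list, the genes named here were chosen after their values were seen. Median coverages in KO and empty vector lists were 10954 and 12753 bp for end joining genes, 49877 and 42730 bp for the partners and kinases, and 55236 and 52637 bp for the upstream factors.

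SMC1 coverage in KO lists was higher at 8 of 10 end joining genes, both RAG cofactors, 9 of 10 partners and kinases, 11 of 12 upstream factors (Rbpj was lower) and 4 of 4 pre-B cell receptor genes, beside the 73.8% of all windows. NIPBL was higher at 3, 0, 7, 4 and 1 of these genes in the same order and lower at none, beside 26.6% of all windows higher and 0.348% lower. CTCF was higher at 5, 0, 4, 2 and 1 and lower at none, beside 44.1% of all windows higher and 0.413% lower. Between cell lines, SMC1 was higher in DN3 lists at 8 of 10 partners and kinases and lower at 1 (Syk, 4169 bp in DN3 and 11465 bp in fibroblast lists), at 5 and 1 of 12 upstream factors, at 3 and 5 of 10 end joining genes, at 0 and 1 of 2 cofactors and at 0 and 1 of 4 pre-B cell receptor genes, beside 9.95% of all windows higher and 63.4% lower.

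Across all 25 lists, coverage per kb relative to the mean of all windows of the list gave the genes whose pattern was most like each member. Rag1 and Rag2, which share most of their peaks, had a Pearson r of 0.993. Outside its own locus Rag1 was most like Trub2, Mapk8 and Fbp1 (r = 0.953, 0.952 and 0.950), and Rag2 most like Mapk8, Rras2 and Rps6ka5 (r = 0.966, 0.956 and 0.956). Ptcra was most like Khdrbs1, Tfrc and Cpne5 (r = 0.934, 0.930 and 0.926), and Dntt most like Parp14, Bpifa1 and Bpifa3 (r = 0.957, 0.955 and 0.954). Among the members, r was 0.831 between Rag1 and Ptcra, 0.794 between Rag1 and Dntt and 0.65 between Ptcra and Dntt. These values compare gene windows over the same 25 lists of 5 antibodies, which differ in length, and no test was made of them.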

How the data were processed

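Peak lists of 25 samples were analysed as deposited. Formaldehyde was the crosslinker, NEBNext Ultra II the library kit, and reads were paired at 38 and 37 bp, per the labels' protocols. Bowtie2, MACS2, bedtools and the mm10 build are named per the submitters' processing notes, with no setting, version or control library given in the sources used here. Lists of CTCF, SMC1 and TCF-1 held positions in 3 columns. Lists of NIPBL and H3K27ac had 9 columns, in which the authors deposited a fold enrichment for each peak and a −log10 q value, and every −log10 q value was above 1. No file gives read counts, so the depth and its error are unknown.

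Groups and replicate numbers came from the labels. Gene bodies came from RefSeq GRCm38.p6, the assembly of mm10, extended by 50 kb on both sides, and promoters of all 4 members were matched in the same release. Covered bp is the length of a window under the merged peaks of a list. A window was called higher or lower where every list of one group lay beyond every list of the other, with exact 2-sided permutation tests over lists, adjusted by Benjamini-Hochberg over all windows for CTCF between lines, and where 1 list stood in each group a ratio over 1.5 was used. Windows with no peak in either group were left out of each background. Peaks of compared lists were merged into regions, and a list holds a region where a peak overlaps it by at least 1 bp. Likeness was Pearson's r over lists of log2 coverage per kb relative to the list's mean, with a pseudocount of 1. The members and gene lists were chosen with earlier results of these data known. Named genes of each list were those with the most and the least covered bp, and others are marked in the text. The scripts were tested on simulated data. Python 3.11.15, numpy 2.4.6, pandas 2.3.3, scipy 1.17.1, matplotlib 3.10.9 and bedtools 2.31.1 were used. Alternatives were flanks of 10 and 100 kb, peak numbers, shares of list coverage, equal list lengths, stricter thresholds, a replicate block and leaving out each list. Sequences of peaks were not used here.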

Additional observations from a re-analysis of the deposited data

Results flagged for a closer look

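The effect of TCF-1 on CTCF coverage ran in opposite directions in the cell lines at all 4 members, as it did at 40.7% of 19702 windows by groups without overlap in both lines. Cells with TCF-1 minus cells without it differed by 1189.5 bp in fibroblasts and by -1029 bp in DN3 cells at Rag1, so the difference of the effects was 2218.5 bp. At Rag2 the effects were 1013.5 bp in fibroblasts and -844.5 bp in DN3 cells, a difference of 1858 bp. At Ptcra they were 7017 bp in fibroblasts and -2104.5 bp in DN3 cells, a difference of 9121.5 bp, and at Dntt 1239 bp in fibroblasts and -967.5 bp in DN3 cells, a difference of 2206.5 bp. Each had an exact permutation p of 0.0556, the smallest that the 36 arrangements allow, with every list of one condition beyond every list of the other in both lines. That p is fixed by such groups in opposite directions and adds nothing to them. The longer CTCF lists were those of induced fibroblasts (34.3 and 37.6 Mb, against 17.8 and 20.1 Mb in untreated) and of KO cells (23.3 and 27.8 Mb, against 16.6 and 23.1 Mb in empty vector cells). As shares of list coverage, the means of Rag1, Rag2 and Dntt were lower in induced than in untreated fibroblasts and that of Ptcra was higher, while in DN3 cells the mean of Dntt was lower in KO and those of the other members were higher. On that scale Rag1 and Rag2 had lower means with TCF-1 in both lines, so their directions no longer differed. At Ptcra and Dntt the directions of the means still differed. The part of list length was not tested.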

How the results depend on the processing

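Of 400 values recomputed for single members, 350 kept their call or lack of one, 24 lost the call, 8 gained one and 18 of called members changed sign. The sign was compared only for members with a call as reported. The 350 include the 64 for CTCF between lines, where no member had a call to lose. They also include calls that were fixed in advance when lists were left out or paired by number. The cause of the changes was not tested. Scaling to a share of list coverage called 2 of 4 members higher in KO for CTCF, 1 for SMC1 and 2 for NIPBL, 1 lower in induced fibroblasts for CTCF and 1 higher in DN3 cells for TCF-1. Its reversed differences, in bp per Mb, were -7.68 for CTCF at Dntt and -16.6 and -21.1 for SMC1 at Rag1 and Rag2 in KO. They were -27.6, -22.1 and -59.9 for fibroblast CTCF at Rag1, Rag2 and Dntt, and 32.0 at both Rag genes and 183 at Ptcra for TCF-1. A flank of 10 kb called 2 members for CTCF in KO (1 higher, 1 lower), 2 for fibroblast CTCF and 1, lower, for fibroblast SMC1, with reversed differences of -120 bp at Ptcra and -60.5 bp at Dntt for CTCF, -87 bp at Rag2 for SMC1 and -1254 bp at Ptcra for H3K27ac in KO, and -141.5 bp at Rag2 for fibroblast CTCF. A flank of 100 kb called 2 for NIPBL and 3 for H3K27ac. By number of peaks 2 were called for CTCF in each line and 0 for H3K27ac, where Rag2 and Ptcra differed by -1 and -0.5 peaks. Stricter thresholds called 2 for NIPBL and 1, lower, for fibroblast SMC1. Equal list lengths called 2 for fibroblast CTCF and 1 for TCF-1, with 151.5 bp at both Rag genes. Leaving out each list in turn kept 4 members in each KO comparison and for fibroblast CTCF, 0 for CTCF and 3 each for SMC1 and TCF-1 between lines. The kept calls of groups without overlap were fixed in advance, since leaving out a list cannot make such groups overlap. Only the sizes of the differences could change. Same-numbered lists shared only a number (correlations of -0.384 to 0.109), and the replicate block kept 4 of 4 members in all 5 comparisons. That outcome was likewise fixed by groups without overlap. Regions only in KO numbered 21, 27 when an overlap of 50% was asked for, chosen after seeing the data, and 19 with gaps of 500 bp merged. The planned overlap of 50% of the peak could change nothing, since regions hold whole peaks, and was not run. With no read depth, peaks near the calling threshold cannot be told from absent ones.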
